A study of Mus musculus with 5 samples.

Results

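The clustered protocadherin genes are 3 neighbouring gene families on mouse chromosome 18, and their occupancy by KAP1 and Ring1b was described here in mouse embryonic stem cells. Members were the genes whose symbols start with Pcdha, Pcdhb or Pcdhg. The deposited promoter tables held 33 of them among 12697 symbols, and the annotation (GRCm38.p6) lists 58 in all: 14 in the alpha, 22 in the beta and 22 in the gamma cluster. All peaks of the 3 deposited lists across the clusters were also taken, which came to 124 of 105219 peaks. The 25 members in no promoter table were kept in every count.

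Protein binding to DNA was mapped by ChIP-seq (sequencing of immunoprecipitated chromatin) in 5 libraries, 1 per group. KAP1, the corepressor encoded by Trim28, was precipitated from KAP1 fl/fl cells given vehicle (ethanol) or 4-hydroxytamoxifen. Ring1b, the product of Rnf2 and the ubiquitin ligase of Polycomb repressive complex 1, was precipitated from vehicle-treated and 4-hydroxytamoxifen-treated Ring1b fl/fl cells. A further Ring1b library came from 4-hydroxytamoxifen-treated KAP1 fl/fl cells. The drug deletes the floxed gene. The sources used here do not give the recombinase that it activates. Treatment lasted 24 h and was followed by 48 h of culture, with tamoxifen kept on for Ring1b fl/fl cells and removed for KAP1 fl/fl cells. All cells grew on irradiated mouse embryonic fibroblasts. Peak lists hold no expression, so stem cell and feeder cell markers could not be checked as levels.

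Protocadherins are adhesion proteins of the cadherin superfamily, and the clustered ones give each neuron its own surface identity. In the alpha and gamma clusters every gene has its own promoter and its own large variable exon, which is spliced to constant exons shared by the whole cluster. Genes of the beta cluster each consist of a single large exon. Neurons use the alternate promoters in random combinations, under the control of CTCF and cohesin, whereas the C-type members at the ends of the alpha and gamma clusters are used by most neurons. Polycomb repressive complex 1 and KAP1 both act in gene silencing.

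The authors called 82775 KAP1 peaks (vehicle against deleted cells), 13516 Ring1b peaks (vehicle against deleted cells) and 8928 Ring1b peaks in KAP1-deleted cells against Ring1b-deleted cells, a different line. The last is called the knockout list here. Each peak has the authors' score, 10 times the -log10 p of the peak caller, which ranks peaks within 1 list only. KAP1 and Ring1b came from different lines, so their co-occurrence compares lists and not the same cells. Each group has 1 library, so differences between conditions have no replicate check. The sources used here do not give read depth, and the intervals and limits printed cover counting error only.

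Ring1b was listed at most gamma and alpha promoters and at a single beta promoter. A promoter in the deposited tables reaches from 1 kb before to 1 kb after the transcript start, and its class is shared (both proteins), KAP1 only or Ring1b only. Ring1b lay at promoters of 9 of 14 alpha genes (64.3%), 1 of 22 beta genes (4.55%) and 19 of 22 gamma genes (86.4%), beside 27.0% of the 21031 protein-coding genes used as background. KAP1 lay at 4 alpha (28.6%), 0 beta and 17 gamma promoters (77.3%), beside 53.0% of all genes. By the limit for a count of 0, the beta count allows up to 3 of 22.

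The classes differed as well. The shared class held 2 alpha, 0 beta and 15 gamma genes, beside 23.2% of all genes. The KAP1 only class held 2 alpha, 0 beta and 2 gamma genes, beside 30.3% of all genes. The Ring1b only class held 7 alpha, 1 beta and 4 gamma genes, together 12 of 58, beside 3.88% of all genes. One of these 12, Pcdhgb8, is a transcribed pseudogene in the annotation. The members were chosen with earlier results known, and neighbours are not independent, so no list test was made.

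**Figure D1:**
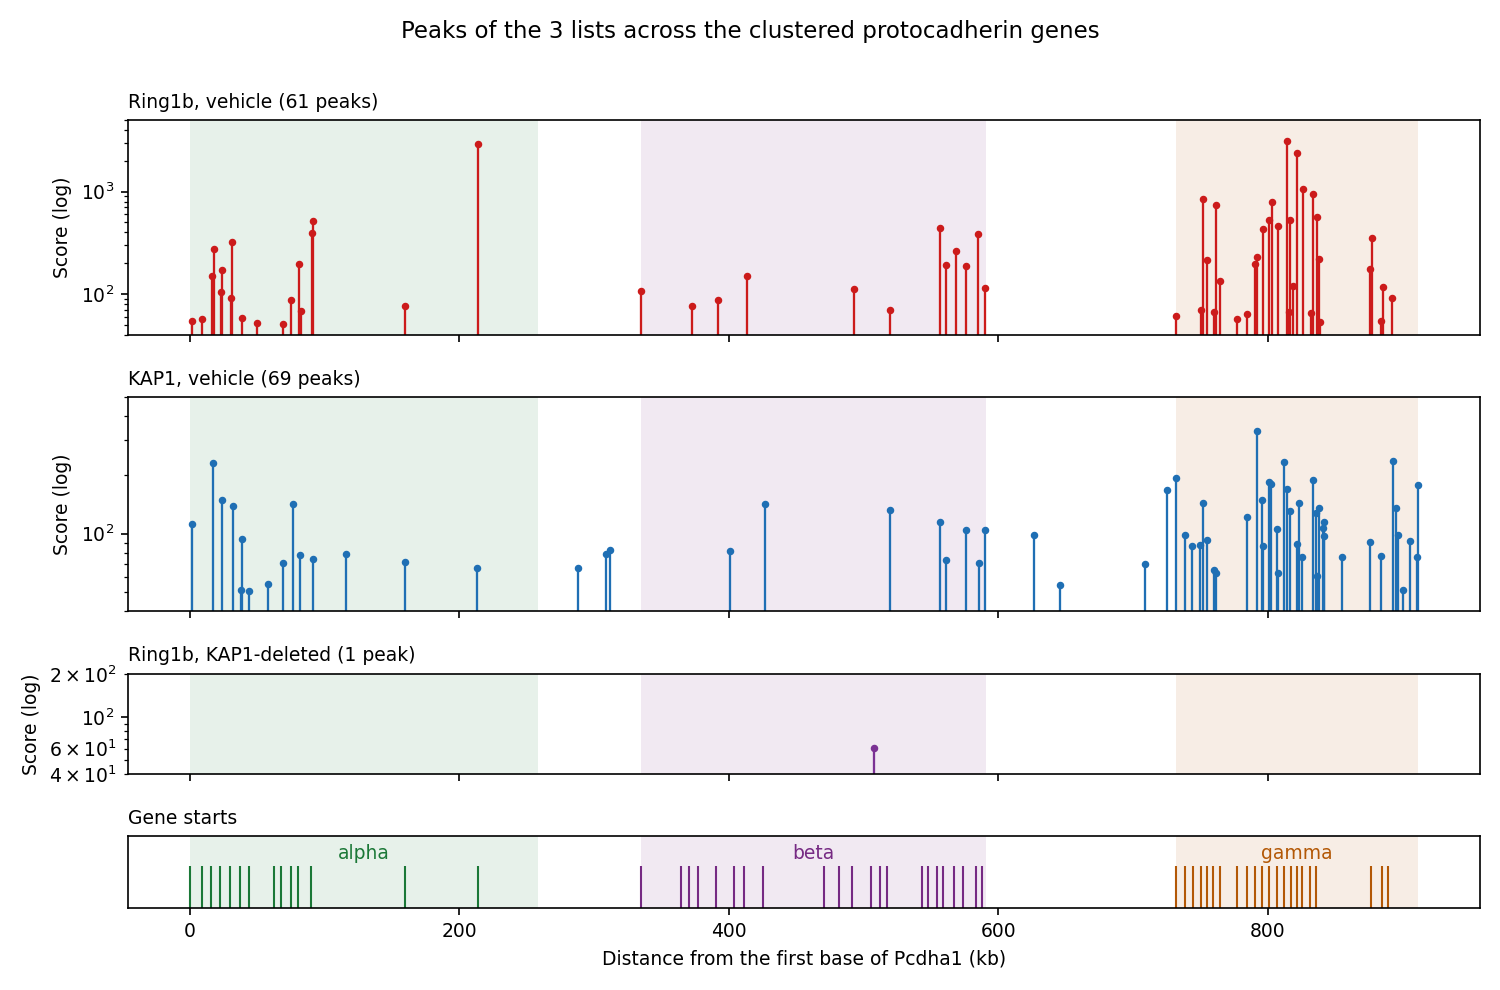
Peak scores (log axes) of the 3 lists against distance from the first base of Pcdha1 in kb. Each stem is 1 peak, shading marks the alpha, beta and gamma spans, and the lowest panel marks gene starts. Ring1b peaks sit in the spans and none lies between them, and the knockout list has 1 peak, in the beta span.

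The alpha cluster (chromosome 18, 36930285 to 37188897, 258.6 kb) had 18 Ring1b and 15 KAP1 peaks. Of its 12 alternate members, 7 had Ring1b without KAP1 at the start. Pcdha2, Pcdha3, Pcdha4, Pcdha5, Pcdha10, Pcdha11 and Pcdha12 were these Ring1b only promoters. At their starts the Ring1b scores were 56.9 at Pcdha2, 148 at Pcdha3, 105 at Pcdha4, 90.2 at Pcdha5, 86.6 at Pcdha10, 198 at Pcdha11 and 393 at Pcdha12. The median of the whole Ring1b list was 116, so 3 of these 7 peaks lay above it. Pcdha6 and Pcdha7 had KAP1 only promoters with scores of 51.7 and 51.0, close to the list minimum of 50.0. Pcdha1, Pcdha8 and Pcdha9 were in no promoter table.

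Farther into the same genes both proteins were found together. Of the 14 alpha genes, 8 had a Ring1b summit between 1 and 3 kb after the start, and all 8 of those peaks overlapped a KAP1 peak. Of the 9 Ring1b peaks with summits within 1 kb of a start, 2 overlapped KAP1. The downstream Ring1b summits lay 1395 to 1740 bp after the start and the KAP1 summits 1397 to 1621 bp after it. The downstream Ring1b scores were 54.8 at Pcdha1, 277 at Pcdha3, 171 at Pcdha4, 321 at Pcdha5, 58.5 at Pcdha6, 51.0 at Pcdha9, 68.2 at Pcdha11 and 519 at Pcdha12. Pcdha1, Pcdha6 and Pcdha9 thus had a listed Ring1b peak although no promoter table gives Ring1b to them. Their scores were close to the list minimum of 50.0. The remaining alpha Ring1b peak, with a score of 51.9, lay 6361 bp after the start of Pcdha7.

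KAP1 was stronger in this downstream position than at alpha starts. The 9 downstream KAP1 peaks had a median score of 112 (70.4 to 231), whereas the 4 at starts had a median of 59.3 (51.0 to 71.9), so the ranges overlapped only slightly. The 5 highest alpha KAP1 peaks were all downstream ones, at Pcdha3 (231), Pcdha4 (148), Pcdha10 (142), Pcdha5 (139) and Pcdha1 (112). Pcdha10 was the only gene of the cluster with downstream KAP1 and no downstream Ring1b peak. Pcdha8 was the only alpha gene with neither protein in either window.

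The C-type alpha members differed from the alternate ones. Pcdhac1 (start at 37090136) and Pcdhac2 had the only shared promoters of the cluster. They had no downstream summit of either protein, as was also the case at Pcdha2, Pcdha7 and Pcdha8. The Ring1b peak at the start of Pcdhac2 reached into its downstream window. Pcdhac2 had the strongest Ring1b peak of the cluster, with a score of 2938 and a width of 2026 bp (37143206 to 37145231), beside a KAP1 peak of 66.9 whose summit lay 709 bp upstream of the Ring1b summit. At Pcdhac1 the Ring1b and KAP1 scores were 76.8 and 71.9, with summits 24 bp apart. Both KAP1 scores were below the list median of 96.2.

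The beta cluster (37264998 to 37521419, 256.4 kb) had 12 Ring1b and 8 KAP1 peaks, almost all of them inside the genes and away from the starts. Pcdhb1, at one end of the cluster, was the exception: its Ring1b peak (score 107) had a summit 157 bp after the start, and it was the only beta gene in a promoter table. The other 11 Ring1b summits lay 1702 to 2174 bp after a start, each in a different gene. All 12 Ring1b summits lay inside annotated beta genes, which are 2340 to 5271 bp long. The promoter window of 1 kb therefore left out 11 of 12 Ring1b peaks of this cluster.

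In the beta cluster the scores were higher toward the gamma side. From Pcdhb3 to Pcdhb14, the Ring1b peaks scored 76.1 at Pcdhb3, 87.0 at Pcdhb5, 151 at Pcdhb7, 111 at Pcdhb11 and 70.3 at Pcdhb14. From Pcdhb17 to Pcdhb22, 6 consecutive genes all had a peak, with scores of 437, 191, 264, 188, 384 and 115 in that order. Among the 12 genes with a Ring1b peak, the rank correlation of the score with gene order was 0.62 (Spearman), a description across neighbours in 1 library. It was 0.46 over 12 alpha and 0.35 over 19 gamma genes, whereas for KAP1 it was -0.64 over 12 alpha, -0.82 over 7 beta and -0.10 over 19 gamma genes. Those 6 genes held the 5 highest Ring1b scores of the cluster. No Ring1b peak was called in Pcdhb2, Pcdhb4, Pcdhb6, Pcdhb8, Pcdhb9, Pcdhb10, Pcdhb12, Pcdhb13, Pcdhb15 or Pcdhb16.

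KAP1 lay in the same part of the beta genes. Of the 7 downstream KAP1 peaks, 6 overlapped Ring1b, at Pcdhb14 (132), Pcdhb17 (115), Pcdhb18 (73.3), Pcdhb20 (104), Pcdhb21 (70.5) and Pcdhb22 (104). The highest KAP1 score of the cluster, 142, was at Pcdhb8, which had no Ring1b peak. The last KAP1 peak (81.3) lay 10819 bp after the start of Pcdhb5, outside any beta gene. In each of the 6 overlaps the KAP1 summit was farther from the start than the Ring1b summit, by 39 to 379 bp.

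The gamma cluster (37661775 to 37841873, 180.1 kb) was the most densely occupied, with 31 Ring1b and 39 KAP1 peaks. Its shared promoters were those of Pcdhga1, Pcdhgb1, Pcdhga4, Pcdhgb2, Pcdhga7, Pcdhga8, Pcdhgb5, Pcdhga9, Pcdhgb6, Pcdhga10, Pcdhgb7, Pcdhga11, Pcdhga12, Pcdhgc3 and Pcdhgc4. Pcdhga2 and Pcdhga3 had KAP1 only, with scores of 98.1 and 86.8. Pcdhga5, Pcdhga6, Pcdhgb4 and Pcdhgb8 had Ring1b only at the promoter, with scores of 135, 56.2, 194 and 65.1. Pcdhgc5, a C-type gene, was the only gamma member in no promoter table.

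Ring1b at the gamma promoters ranged widely. In the promoter tables the highest scores were 3100 at Pcdhgb6, 2389 at Pcdhgb7 and 1070 at Pcdhga11, and the lowest were 56 at Pcdhga6, 60 at Pcdhga1 and 64 at Pcdhga7. The score of 3100 is tied among 732 peaks of the list, so it gives no finer rank. The peaks at Pcdhgb6 and Pcdhgb7 were 3329 and 2995 bp wide, beside a list median of 587 bp. Each of them reached over the start and into the downstream window of its gene. KAP1 scores, which are on another list's scale, ran from 65 at Pcdhgb2, 76 at Pcdhga11 and 77 at Pcdhgc4 up to 191 at Pcdhgb5, 198 at Pcdhga1 and 235 at Pcdhgb6.

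The A and B subfamilies of the gamma genes, which alternate along the cluster, differed in where the proteins lay. All 7 Pcdhgb genes had a downstream KAP1 summit, and 6 of 7 had a downstream Ring1b summit. Among the 12 Pcdhga genes, 1 (Pcdhga12) had a downstream KAP1 summit and 2 (Pcdhga10 and Pcdhga12) a downstream Ring1b summit. Counting any Ring1b peak that reached into the downstream window, there were 7 of 7 Pcdhgb and 4 of 12 Pcdhga genes. This split was made after the values were seen, and its cause was not tested.

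The 2 highest Ring1b scores of the cluster were at B genes, Pcdhgb6 and Pcdhgb7, and the next was at Pcdhga11 (1070). Their downstream Ring1b scores were 852 at Pcdhgb1, 743 at Pcdhgb2, 231 at Pcdhgb4, 788 at Pcdhgb5, 3100 at Pcdhgb6 and 942 at Pcdhgb8. At the starts of the same genes the Ring1b scores were 70.0, 66.0, 194 and 527 at Pcdhgb1, Pcdhgb2, Pcdhgb4 and Pcdhgb5, and 65.1 at Pcdhgb8, each lower than downstream. Taking the highest Ring1b peak of each gene, the median was 852 over the 7 Pcdhgb genes (231 to 3100) and 323 over the 10 Pcdhga genes that had one (56.2 to 1070). The ranges overlapped. The pseudogene Pcdhgb8 had the second-strongest of these 6 downstream peaks.

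The Pcdhga genes had their Ring1b peaks mostly at or just after the start. Scores there were 60.4 at Pcdhga1, 216 at Pcdhga4, 135 at Pcdhga5, 56.2 at Pcdhga6, 64.1 at Pcdhga7, 430 at Pcdhga8, 458 at Pcdhga9, 530 at Pcdhga10 and 1070 at Pcdhga11. From Pcdhga8 onward these scores were 430 or more, and before it none was above 216. Pcdhga10 had further peaks of 65.8, upstream of the start, and 120, downstream. Pcdhga12 had peaks of 560, 220 and 53.3 with summits 1247, 2799 and 3324 bp after the start.

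The C-type gamma genes had weaker Ring1b than Pcdhac2. Pcdhgc3 had peaks of 174 and 352 with summits 133 bp before and 897 bp after the start, and KAP1 (90.3) overlapped the upstream one. Pcdhgc4 showed the same arrangement, with Ring1b scores of 54.0 and 116 and a KAP1 score of 76.6. Pcdhgc5 had no summit within 3 kb after its start, and the nearest summits were those of a Ring1b peak (90.2) at 3080 bp and a KAP1 peak (234) at 3260 bp, both of which reached back into the 3 kb window. Between the start of Pcdhgc5 and the end of the cluster, which holds the constant exons, lay 7 KAP1 peaks with a median score of 98.4 and this single Ring1b peak. The 5 highest KAP1 peaks of the cluster were 336 downstream in Pcdhgb4, that peak of 234, 232 at the start of Pcdhgb6, 192 at Pcdhga1 and 189 downstream in Pcdhgb8.

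**Figure D2:**
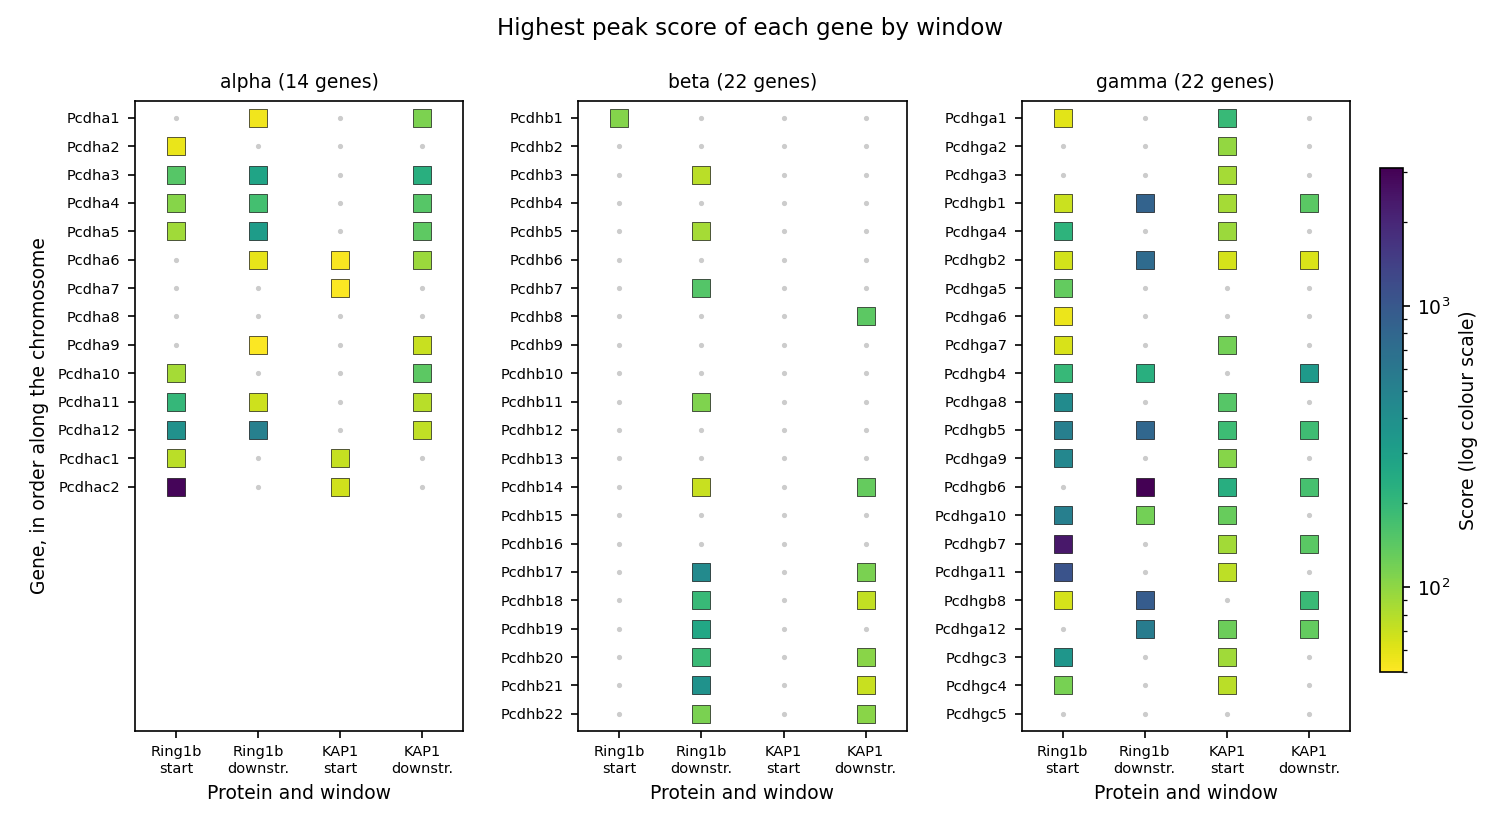
Highest peak score (log colour scale) of each of the 58 genes, in order along the chromosome, for Ring1b and KAP1 within 1 kb of the start and 1 to 3 kb after it. Squares are peaks assigned by summit and grey dots mark windows with none. Of the 22 beta genes, 9 show no square, and the others show squares in the downstream columns only, except Pcdhb1. Each of the 7 Pcdhgb genes shows at least 1 in a downstream column.

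A second position of Ring1b, 1 to 3 kb after the start, was thus shared by all 3 clusters, and it was set against other genes. This window was chosen after the positions had been seen. A Ring1b summit lay in it in 8 of 14 alpha genes (57.1%), 11 of 22 beta genes (50.0%) and 8 of 22 gamma genes (36.4%), beside 5.85% of 16853 protein-coding genes on other chromosomes. Within 1 kb of the start the shares were 64.3%, 4.55% and 77.3%, beside 23.7%. A downstream summit with none at the start was found in 3 alpha, 11 beta and 2 gamma genes, beside 4.00% of the other genes.

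KAP1 was also found in the downstream window, whereas it lay at fewer alpha starts than Ring1b did. KAP1 summits lay downstream in 9 alpha (64.3%), 7 beta (31.8%) and 8 gamma genes (36.4%), beside 15.7% of the other genes. Within 1 kb of the start KAP1 summits lay in 28.6% of alpha, 0 of 22 beta and 77.3% of gamma genes, beside 54.5%. Downstream KAP1 with none at the start was found in 8 alpha, 7 beta and 2 gamma genes, beside 5.46%. Where a gene had Ring1b in both windows, the downstream peak scored higher in 4 of 5 alpha and 5 of 6 gamma genes. The exceptions were Pcdha11 and Pcdhga10. The gap between the 2 summits had a median of 1327 bp in alpha and 1712 bp in gamma genes.

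**Figure D3:**
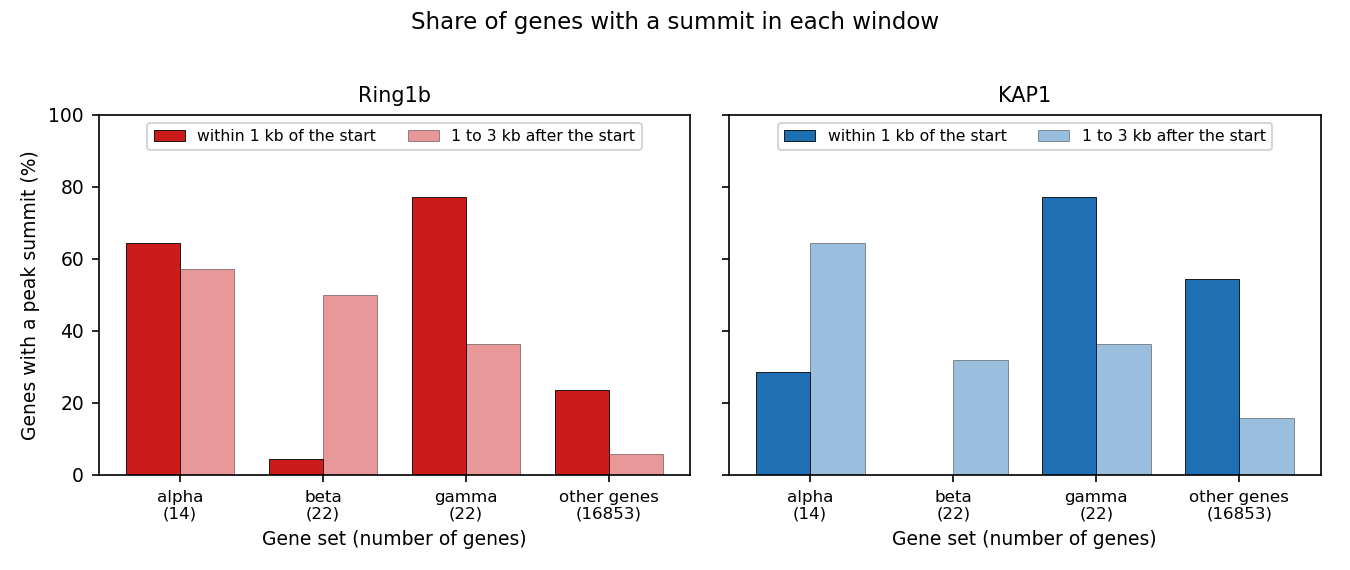
Percent of genes with a peak summit within 1 kb of the start (dark bars) or 1 to 3 kb after it (pale bars), for each cluster and for 16853 protein-coding genes on other chromosomes. In the beta cluster Ring1b is at 4.55% and 50.0% for the 2 windows, whereas the other genes are at 23.7% and 5.85%.

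At the shared gamma promoters the distance between the proteins depended on which peaks were paired. The tables give 1 region per protein and promoter, and in the 15 shared gamma promoters their Ring1b summit lay after the KAP1 summit in 11, with a median difference of 545 bp and 8 pairs over 500 bp apart. Several of these genes have more than 1 peak of a protein in the peak lists. Pairing the closest summits of each gene there, which was done after the values were seen, gave a median distance of 64.0 bp (13 to 545 bp), with 1 gene, Pcdhga11, over 500 bp. Ring1b then lay after KAP1 in 6 genes and before it in 9, so neither order prevailed in both pairings. At Pcdhgc3, for example, the tables pair summits 1043 bp apart, and the peak lists hold a Ring1b summit 13 bp from the same KAP1 summit. Choosing the closest pair favours short distances. At Pcdhgb1, Pcdhgb5, Pcdhgb6 and Pcdhga12 both summits of that pair lay more than 1 kb after the start, outside the promoter window. Over all gamma Ring1b peaks that overlapped KAP1, the median distance between summits was 174 bp.

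Over all peaks of the clusters, 38 of 61 Ring1b peaks overlapped KAP1 by at least 1 bp, or 62.3% (95% exact Clopper-Pearson interval 49.0% to 74.4%), beside 76.6% of the whole Ring1b list. By cluster it was 10 of 18 in alpha (55.6%, 30.8% to 78.5%), 6 of 12 in beta (50.0%, 21.1% to 78.9%) and 22 of 31 in gamma (71.0%, 52.0% to 85.8%). The 3 intervals overlapped one another. All of these intervals treat neighbouring peaks as independent, so they give no test between clusters or against the whole list. Ring1b peaks that met KAP1 had a median score of 225, and those that did not had 107. In the other direction 43 of 62 KAP1 peaks overlapped Ring1b (69.4%, 56.3% to 80.4%), beside 13.7% of the whole KAP1 list. Neighbouring genes resemble one another in sequence, and the sources used here do not give how reads matching several genes were placed.

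Ring1b peaks were dense over the clusters. There were 69.6 per Mb in alpha, 46.8 in beta and 172 in gamma, beside 4.81 on chromosome 18 as a whole and 4.96 over all placed chromosomes. They covered 4.87%, 2.78% and 16.0% of the 3 spans, beside 0.525% of chromosome 18. KAP1 peaks were at 58.0, 31.2 and 217 per Mb, beside 28.5 on chromosome 18, so the beta cluster was close to the chromosome's level. Gene starts are also crowded in these spans, and per gene there were 1.29, 0.545 and 1.41 Ring1b peaks and 1.07, 0.364 and 1.77 KAP1 peaks. The whole lists hold 13516 Ring1b and 82775 KAP1 peaks, counted anywhere, beside 21031 protein-coding genes. Those whole-list counts include peaks far from any gene, whereas the cluster counts hold only peaks inside the spans. The per-gene figures of the clusters and of the genome are thus not like measures. In score, 8 of 18 alpha, 6 of 12 beta and 20 of 31 gamma Ring1b peaks were above the list median.

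Between the clusters, 216.5 kb in all, 7 KAP1 and 0 Ring1b peaks were listed. That is 32.3 KAP1 peaks per Mb, near the 28.5 of chromosome 18, and at 4.81 Ring1b peaks per Mb so short a stretch cannot show a lack of Ring1b. Between alpha and beta (76.1 kb) there were 3 KAP1 peaks with scores of 67.0 to 82.1. Between beta and gamma (140.4 kb) there were 4, with scores of 54.8 to 167. Slc25a2, a mitochondrial carrier gene in that gap, had a KAP1 only promoter (70.0), and Taf7, which encodes a general transcription factor subunit, was in no promoter table. Beyond the gamma cluster, Diaph1, an actin regulator, had KAP1 only (267) and Hdac3, a histone deacetylase gene, had both, with a KAP1 score of 243 and a Ring1b score of 95. The read-through genes Gm37013, Gm38666 and Gm38667, which span much of the locus, were in no promoter table under their own symbols. Their first annotated bases (36952648, 36967631 and 36973802) lay close to those of Pcdha4, Pcdha6 and Pcdha7, whose promoters were listed.

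No Ring1b peak of the clusters overlapped a peak of the knockout list. Of the 61 Ring1b peaks in the clusters, 0 overlapped a knockout-list peak, which allows a share of up to 4.92%, beside 0.326% of the whole list. The limits were 16.7% in alpha, 25.0% in beta and 9.68% in gamma. The count is thus near the background, and that list was called against another line. The knockout list had 1 peak in the 3 spans, in Pcdhb12 (37437650 to 37437869), with a width of 220 bp and a score of 60.6. Its summit was 2121 bp after the start, in a gene with no Ring1b or KAP1 peak in vehicle cells, and the nearest such peaks were 11487 and 11761 bp away.

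A fixed list of 20 genes, taken as possible regulators of the clusters and including Trim28 and Rnf2, was looked up in the same promoter tables. Whether they act on the clusters in these cells was not tested. Of the 20 listed genes, 19 had KAP1 and 6 also had Ring1b, beside 53.0% and 27.0% of all genes. Ctcf (163), which encodes the insulator protein, and the cohesin genes Rad21 (103), Smc3 (64), Stag1 (282) and Stag2 (86) had KAP1 only. Smc1a, a further cohesin gene, was in no table. Both proteins were at Smchd1 (Ring1b 76, KAP1 259), a chromatin protein needed for silencing of these clusters, and at Setdb1 (86 and 200), the histone methyltransferase that KAP1 recruits. The DNA methyltransferase genes Dnmt3b (113 and 297) and Dnmt3a (698 and 195, at 1 of its 2 promoters) also had both. So did the genes deleted in the study, Trim28 (209 and 237) and Rnf2 (87 and 276). The control cells for KAP1 at Trim28 and for Ring1b at Rnf2 carried the deletion of that gene, and its effect on these scores was not tested. Nipbl, Wapl, Dnmt1, Zfp143, Wiz, Ehmt1, Ehmt2 and Nsd1 had KAP1 only, with scores of 56 to 264.

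The non-clustered protocadherin genes lie singly in the genome and encode related adhesion proteins. Of 12, 7 had Ring1b at the promoter, beside 27.0% of all genes, and 5 had KAP1, beside 53.0%. Pcdh1, Pcdh8, Pcdh9, Pcdh17 and Pcdh18 had both proteins, and Pcdh11x and Pcdh19 had Ring1b only. Their Ring1b scores were 1875 at Pcdh18, 2286 at Pcdh11x and 3100 at the other 5. Of the 29 clustered promoters with Ring1b, which had a median of 148, 3 reached 1875 or more: Pcdhac2, Pcdhgb6 and Pcdhgb7. This cut is the lowest score of the non-clustered set, so that all 7 reach it was fixed by the choice. In the whole list of 13516 Ring1b peaks, 1036 scored 2389 or more and 1937 scored 1070 or more. Pcdh7, Pcdh10, Pcdh12, Pcdh15 and Pcdh20 were in no promoter table. The difference in score between the sets was not tested.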

How the data were processed

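KAP1 and Ring1b ChIP-seq was measured in 5 libraries, 1 per group. Per the labels' protocols, cells were fixed for 10 min in 1.2% formaldehyde and chromatin was sheared to about 200 bp. The submitters' processing notes name bedtools 2.16.2, MACS 1.4.2, CASAVA 1.8.2 and Bowtie2, with no role or order, and build mm10 (GRCm38). The deposited score is 10 times the -log10 p of the peak caller, per the file headers, which also name the 2 libraries compared in each list.

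From these files, python 3.11.15 with numpy 2.4.6 and scipy 1.17.1 computed the classes, overlaps (at least 1 bp), summit distances and exact intervals. Window and overlap functions were tested on simulated data. Classes came from the deposited tables, peak positions and scores from the peak lists unless a table is named. For the members, 29 of 29 Ring1b and 15 of 21 KAP1 table regions had the borders of a listed peak. Coordinates are 1-based. The start was the centre of the deposited promoter or, for genes in no table, the first annotated base (lowest coordinate), since all members were taken to point the same way. For 15 members the deposited centre differed from that base. A summit belonged to the last gene whose start lay no more than 1 kb beyond it.

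The whole-gene tables merge the clusters into 1 entry, named Pcdha1 and shared, so they were used as an alternative only. All members in a promoter table were named. Scores were given for all Ring1b and knockout-list peaks of the spans, the 5 highest KAP1 peaks of each span, the 3 highest and lowest promoter scores and the C-type members. The members and gene lists were chosen with earlier results of these data known. No test between conditions and no list test was made.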

Additional observations from a re-analysis of the deposited data

How the results depend on the processing

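Of 96 recomputed values for 21 results, 64 stayed close to the reported value (counts within 1.5 times, shares within their interval), 32 moved further and 0 reversed. Counting symbols, recomputing classes from the peak lists and asking for 50% of the peak moved none of the class counts past that limit. Each listed member has 1 promoter entry, so counting symbols could not change a count. With the upper 50% of scores a count of 0 could not fall. These fixed outcomes are among the 64. With the upper 50% of scores, promoters with Ring1b fell to 4 in alpha, 0 in beta and 12 in gamma, those with KAP1 to 0 in alpha and 9 in gamma, and shared ones to 0 and 6. Peaks in the spans then numbered 5, 5 and 23 for KAP1 and 8, 6 and 20 for Ring1b. With a window of 5 kb, alpha had 13 genes with KAP1 and 12 shared, and beta had 13 with Ring1b, 8 with KAP1 and 6 shared. A window from 1 kb before to 3 kb after the start, added after seeing the data, gave 12 alpha genes with KAP1 and 11 shared, and 12 beta genes with Ring1b, 7 with KAP1 and 6 shared. The whole-gene tables hold 1 alpha symbol (with Ring1b, with KAP1, shared: 1 each) and 0 beta and 0 gamma symbols. Ring1b peaks within 1 kb of KAP1 were 88.9% in alpha, 50.0% in beta and 87.1% in gamma. The share of the whole Ring1b list at this distance was not computed, and 76.6% of that list overlapped KAP1. No paired analysis was possible because each group has 1 sample. Read depth was not known, so a peak that is not listed shows only that none was called.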
